A study of Mus musculus with 2 samples.

Results

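MicroRNA genes best known from lineages other than brain were examined in the hippocampus. The set was chosen by gene symbol and covers the pluripotency clusters, the genes embedded in the Hox clusters, and genes of striated muscle, liver, gut and exocrine pancreas. Of 34 listed symbols, 33 had a row among the 2202 miRNA genes counted. The remaining symbol, Mir292a, appears in the annotation as Mir292 and was skipped by the rule, and that gene had 0 counts in replicate 1 and 0 in replicate 2. The tissue was hippocampus (labelled as a layer of it) of B6CASTF1/J males at 2 months, the F1 hybrid of the C57BL/6J and CAST/EiJ strains, with The Jackson Laboratory as source, and RNA fragments under 30 nt were sequenced. There was 1 group, with biological replicates 1 and 2, no treatment is named in the labels, and there was no second condition to compare. The replicates are separate biosamples under a single donor entry, so their spread may not cover the spread between animals.

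A microRNA is cut from a hairpin precursor, and either arm of the hairpin can give a mature product of roughly the length seen in the sequences below. The product guides Argonaute to messenger RNAs mainly through its seed, bases 2 to 8. Many microRNAs are strongly tied to one lineage: the Mir290 and Mir302 clusters to pluripotent cells, Mir1a, Mir133 and Mir206 to striated muscle, Mir208a, Mir208b and Mir499 to myosin heavy chain genes, Mir122 to hepatocytes, Mir192, Mir194 and Mir215 to gut, liver and kidney epithelium, and Mir216 and Mir217 to pancreatic acinar cells. The Mir10 and Mir196 genes lie in the Hox clusters, whose genes pattern the trunk and hindbrain and are largely silent in the forebrain.

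The mature sequences below, from RefSeq on GRCm38.p6, are shown because they group the genes by seed and show how far near-identical copies can be told apart by a short read. They are written 5′ to 3′ with the seed in capitals. RefSeq gave mature sequences for 29 of the 33 genes, and for Mir302a and Mir1a-1 only the 5p product was at hand.
miR-206-3p: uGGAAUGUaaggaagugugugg
miR-208a-3p: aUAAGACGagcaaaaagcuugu
miR-208b-3p: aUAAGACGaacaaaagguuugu
miR-499-5p: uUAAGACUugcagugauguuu
miR-10a-5p: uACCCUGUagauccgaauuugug
miR-10b-5p: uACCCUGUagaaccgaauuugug
miR-196a-5p: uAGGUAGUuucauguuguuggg
miR-196b-5p: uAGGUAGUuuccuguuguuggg
miR-192-5p: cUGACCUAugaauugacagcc
miR-215-5p: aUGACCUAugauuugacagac
miR-194-5p: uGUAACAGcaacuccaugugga
miR-194-1-3p: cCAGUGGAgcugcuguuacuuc
miR-194-2-3p: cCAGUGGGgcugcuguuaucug
miR-302b-3p: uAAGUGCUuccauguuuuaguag
miR-302d-3p: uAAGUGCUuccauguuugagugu
miR-291a-3p: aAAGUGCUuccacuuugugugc
miR-294-3p: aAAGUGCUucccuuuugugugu
miR-295-3p: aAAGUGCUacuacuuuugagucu
miR-367-3p: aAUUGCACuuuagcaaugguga

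Several pairs differ at few positions, counted from 1 at the 5′ end with the base of the first-named product first. The 5p products of Mir10a and Mir10b differ only by U12A, and those of Mir196a and Mir196b only by A12C. The 5p products of Mir192 and Mir215 differ by C1A, A12U and C20A, and share the seed. The 3p products of Mir208a and Mir208b differ by G10A, A16G and C18U, also outside the seed. Mir194-1 and Mir194-2 give the same 5p product, and only their 3p products, which differ by A8G, C19U, U20C and C22G, separate the loci.

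The tissue was checked by its resident cells. Replicate 1 held 2322520 and replicate 2 held 3414105 counts on miRNA genes, taken from the column for the strand of the gene. Each count was divided by the library's miRNA-gene total and expressed per 1e6 (CPM). A count of 0 allows a level of up to 3 counts, or 1.29 CPM at the depth of the first library and 0.879 CPM at that of the second. Of 12 genes listed as neuronal markers, 10 were at 2 CPM or more in both libraries, and the list summed to 33052 and 47686 CPM. Those below that level were Mir124a-2 and Mir124a-3, and Mir124a-1 was only just above it, at 2.58 and 3.22 CPM. Reads that fit several loci are taken to be in no gene's count, and shared sequence was not examined for marker genes. The low values of the Mir124a genes therefore set no limit on their product. Markers of other resident cells were detected too: 3 of 3 for oligodendrocytes (4367 and 2683 CPM), 1 of 1 for endothelium (14889 and 12474 CPM), 2 of 2 for mural cells and smooth muscle (6456 and 6935 CPM), 3 of 3 for microglia and leukocytes (675 and 1093 CPM) and 4 of 5 for choroid plexus (1052 and 994 CPM). For erythrocytes 2 of 3 listed symbols, Mir451a and Mir144, had a row, and both were detected (1902 and 1128 CPM). The symbol Mir486a had none, but a gene annotated as Mir486 was at 20.7 and 21.4 CPM and is not in this sum.

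Against these, the genes of other lineages were rare but not absent. Together they held 451 counts (194 CPM) in replicate 1 and 401 counts (117 CPM) in replicate 2, or 0.0194% and 0.0117% of miRNA-gene counts. At 2 CPM or more in both libraries, called detected here, stood 7 of the 33 genes: Mir122, Mir206, Mir194-2, Mir192, Mir499, Mir10a and Mir196b. That is 21.2%, beside 18.2% of all 2202 miRNA genes, a share near the background that says nothing particular about these genes. A further 10 genes had counts but were not detected, and 16 had 0 counts in both libraries. At least 1 count was present for 51.5% of the genes, against 32.5% of all miRNA genes. The median of the 33 genes was 0.146 CPM, where the median of all miRNA genes was 0.

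**Figure D1:**
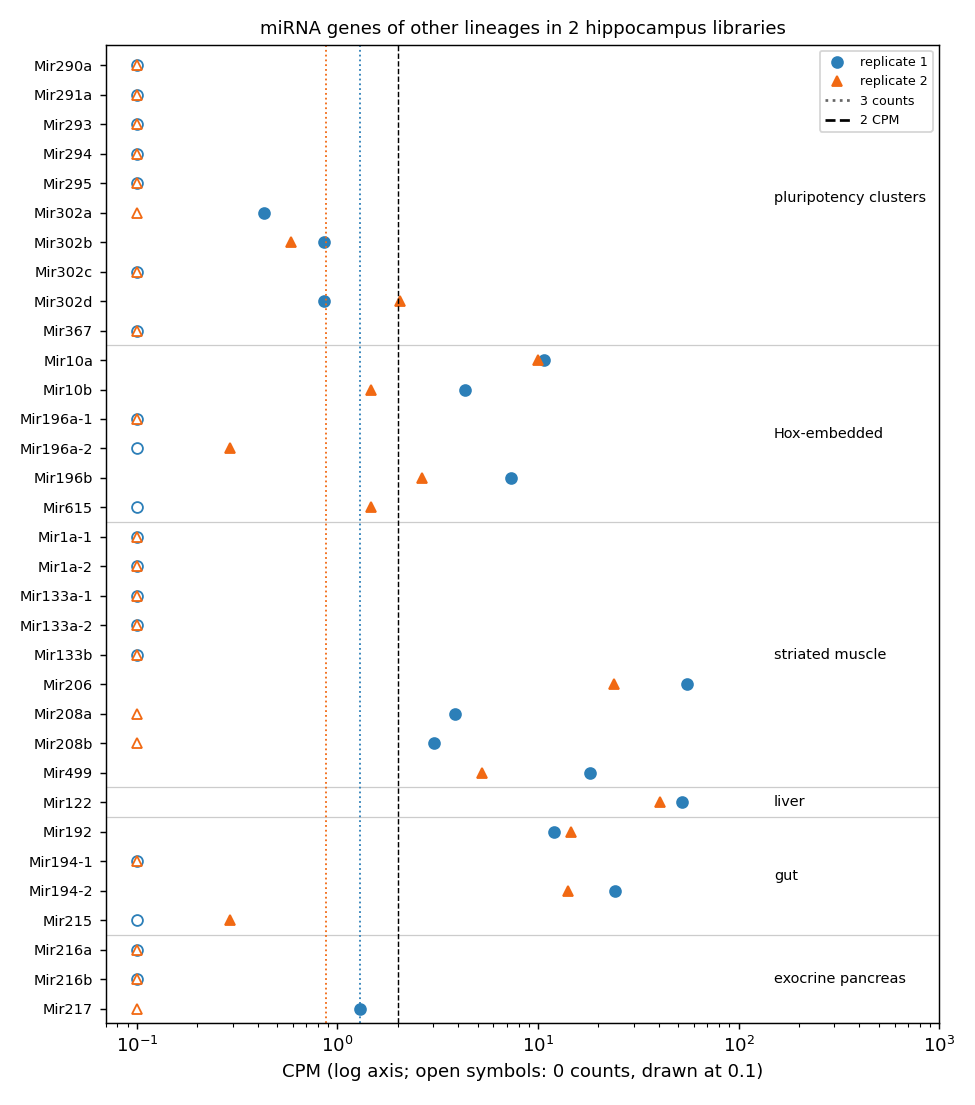
CPM (log axis) of each of the 33 genes in replicate 1 (blue circles) and replicate 2 (orange triangles), grouped by lineage, with open symbols for 0 counts, dotted lines at 3 counts in each library and a dashed line at 2 CPM. The 7 detected genes lie right of the dashed line in both libraries, and the highest values are 55.1 CPM for Mir206 in replicate 1 and 52.1 CPM for Mir122 in replicate 1.

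Among the 401 detected genes, those of other lineages sat in the lower part of the abundance order. Mir122 ranked 235 of all miRNA genes by mean CPM and Mir206 ranked 241, and 234 genes lay above both. Mir194-2 ranked 279, Mir192 ranked 291, Mir499 ranked 301, Mir10a ranked 312 and Mir196b ranked 348. The median of the detected genes of other lineages was 13.4 CPM, against 87.0 CPM for all 401 detected genes. Mir206, Mir122, Mir194-2, Mir192 and Mir499, grouped here after their values were seen, held 83.1% and 84.0% of the counts of the set in replicates 1 and 2.

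**Figure D2:**
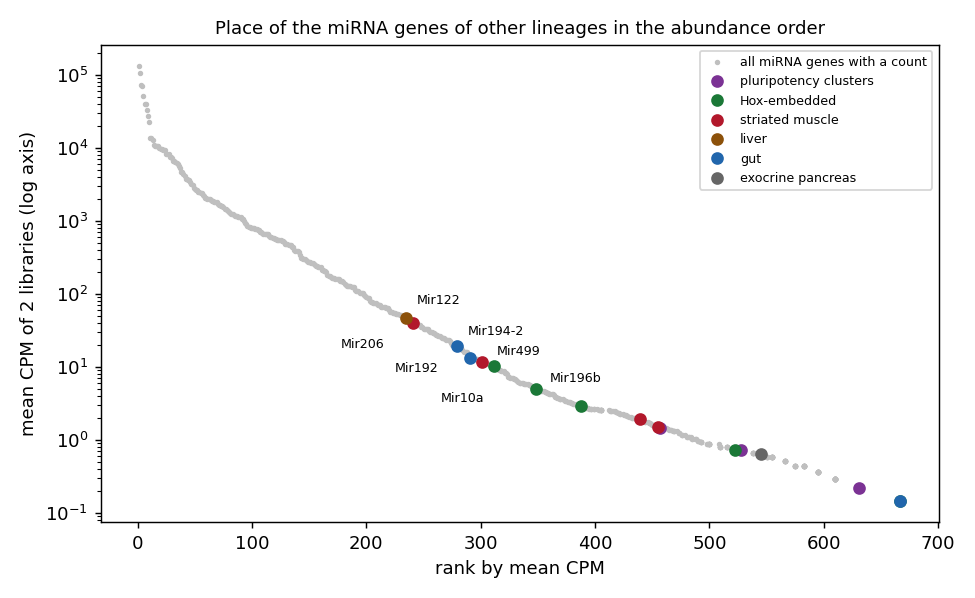
Mean CPM of the 2 libraries (log axis) against rank for all miRNA genes with a count (grey) and for the genes of other lineages (coloured by lineage), with the 7 detected ones labelled. Mir122, at rank 235 and 46.4 CPM, is the first of them, and Mir196a-2 and Mir215 share a point at the right end.

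Among the lineages, striated muscle had the highest mean sum, 54.7 ± 35.9 CPM (SD, n = 2), and the widest spread. It stood at 80.1 CPM (Wilson 95% interval 69.4 to 92.5) in replicate 1 and 29.3 CPM (24.1 to 35.6) in replicate 2. The liver gene was at 46.4 ± 8.05 CPM, below the muscle sum in replicate 1 and above it in replicate 2, so the order of the leading lineages was not fixed. The gut genes summed to 36.2 CPM (29.2 to 44.8) and 29.0 CPM (23.8 to 35.3), and their intervals met those of the liver gene in both libraries. The Hox-embedded genes were lower in both libraries, at 22.4 CPM (17.1 to 29.4) and 15.8 CPM (12.1 to 20.6), and their interval met that of gut in replicate 1 only. The pluripotency genes summed to 2.15 and 2.64 CPM and the exocrine pancreas genes to 1.29 and 0 CPM. Since the lineages hold between 1 and 10 genes, a sum is not a level per gene. Reads that fit several loci are taken to be in no sum. Intervals cover counting error only, with each read taken as independent. Reads amplified by PCR without molecular identifiers are not independent molecules, so the intervals may be too narrow.

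Muscle and myosin genes. Mir206, a microRNA of skeletal muscle that lies in an exon of the noncoding gene Gm28653 on chromosome 1 (positions 20679010 to 20679082, mm10), had 128 counts (55.1 CPM) in replicate 1 and 82 counts (24.0 CPM) in replicate 2. It held 68.8% of the muscle counts in replicate 1 and 82.0% in replicate 2. Its neighbour Mir133b, 3687 bp downstream in the same noncoding gene, had 0 counts in both libraries. The pair is processed from a single transcript in muscle, but the Mir133b hairpin shares a run of 21 bases with that of Mir133a-2. Reads that fit both are taken to be in neither count.

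The 3 genes in introns of myosin heavy chain genes were all higher in replicate 1. Mir499, in Myh7b on chromosome 2 (155622880 to 155622958), had 42 counts (18.1 CPM) in replicate 1 and 18 counts (5.27 CPM) in replicate 2. Mir208a, in Myh6 on chromosome 14 (54949060 to 54949142), had 9 counts (3.88 CPM) and 0 counts. That is 4.41-fold higher in replicate 1 when the 0 is set at its limit of 3 counts. Mir208b, in Myh7 on the same chromosome (54975700 to 54975776), had 7 counts (3.01 CPM) and 0 counts, 3.43-fold higher in replicate 1 in the same way. These folds leave out the counting error in replicate 1. The Wilson 95% intervals there began at 2.04 CPM (Mir208a) and 1.46 CPM (Mir208b), and those in replicate 2 ended at 1.125 CPM. Myh6 and Myh7 encode the cardiac myosin heavy chains. All 4 muscle genes with any count were higher in replicate 1, while the summed markers of mural cells and smooth muscle were not (6456 and 6935 CPM). Of the other marker sums, those of erythrocytes, oligodendrocytes, endothelium and choroid plexus were higher in replicate 1 and those of neurons and of microglia and leukocytes in replicate 2. Several of these lists were split. Of the erythrocyte markers, Mir451a was at 1807 and 1007 CPM and Mir144 at 94.7 and 121 CPM. For choroid plexus, Mir34c was at 382 and 167 CPM but Mir204 at 590 and 738 CPM. Against the neuronal sum went Mir138-1, at 4809 and 2633 CPM, Mir138-2, at 2687 and 2104 CPM, and Mir132, at 11112 and 10719 CPM. Mir9-2, Mir9-3 and Mir124a-2 were also higher in replicate 1. The other listed neuronal genes were higher in replicate 2, with the largest CPM difference for Mir128-1, at 4518 and 16906 CPM. Mir155 went against the sum of its list, at 43.1 and 33.4 CPM. The oligodendrocyte genes all went with their sum, with Mir219a-2 at 2447 and 865 CPM but Mir338 at 1911 and 1811 CPM. The part of these cells in the difference was not tested.

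The other 4 muscle genes, Mir1a-1, Mir1a-2, Mir133a-1 and Mir133a-2, had 0 counts in both libraries. These are the most abundant microRNAs of heart and skeletal muscle, and each is made from a pair of loci. Their hairpins share runs of 28 bases (Mir1a) or 31 bases (Mir133a) with another miRNA gene. For them 0 counts set no limit on the product, because a read that fits several loci is taken to be in no gene's count.

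Hepatocyte gene. Mir122, which makes up much of the microRNA of hepatocytes and is used as a liver marker, had 121 counts in replicate 1 and 139 in replicate 2. These equal 52.1 CPM (Wilson 95% interval 43.6 to 62.2) and 40.7 CPM (34.5 to 48.1). It overlaps an exon of the noncoding gene AC157910.3 on chromosome 18 (65248861 to 65248926). The longest run its hairpin shares with any other miRNA hairpin is 12 bases. Among resident cell markers the mean of Mir122 lay next below Mir449a of choroid plexus, at 69.8 ± 0.541 CPM (SD, n = 2). Mir142 of leukocytes and microglia was higher, at 78.2 ± 21.1 CPM, and the inflammatory gene Mir155 was lower than Mir122, at 38.2 ± 6.83 CPM.

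Gut genes. Mir194-2 and Mir192 lie 116 bp apart on chromosome 19, in no annotated host gene, at 6264643 to 6264728 and 6264844 to 6264932. Mir194-2 had 56 counts (24.1 CPM) in replicate 1 and 48 counts (14.1 CPM) in replicate 2. Mir192 had 28 counts (12.1 CPM) and 50 counts (14.6 CPM). By counted reads Mir194-2 was the higher of the pair in replicate 1. In replicate 2 they were level within counting error, with intervals of 10.6 to 18.6 and 11.1 to 19.3 CPM. Reads of the 5p product that Mir194-2 shares with Mir194-1 are taken to be in neither count. The values of Mir194-2 may therefore be lower limits, and the levels of the pair cannot be ordered from them. The paralogous pair on chromosome 1, Mir194-1 and Mir215, 196 bp apart and opposite Iars2, held 0 and 1 count over both libraries. Mir215 shares no more than 11 bases in a row with another miRNA hairpin. For it, in contrast to Mir194-1, whose 5p product is identical to that of Mir194-2, 0 counts in replicate 1 limit the level to 1.29 CPM.

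Hox-embedded genes. Mir10a, 993 bp from Hoxb4 on chromosome 11 (96317165 to 96317274), had 25 counts (10.8 CPM) in replicate 1 and 34 counts (9.96 CPM) in replicate 2. Mir10b, in introns of Hoxd3 and Hoxd4 on chromosome 2 (74726070 to 74726137), had 10 counts (4.31 CPM) and 5 counts (1.46 CPM). Mir10a was above Mir10b in both libraries, and the intervals did not overlap in replicate 2 (7.13 to 13.9 against 0.626 to 3.43 CPM) but met in replicate 1 (7.29 to 15.9 against 2.34 to 7.93 CPM). Mir196b, in an exon of Hoxa9 on chromosome 6 (52230081 to 52230165), had 17 counts (7.32 CPM) and 9 counts (2.64 CPM).

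The rest of the Hox-embedded genes were at or near 0. Mir615, in an intron of Hoxc5, had 0 counts in replicate 1 and 5 in replicate 2. Mir196a-2, also annotated within an intron of Hoxc5, had 0 and 1 count, and Mir196a-1, 6192 bp from Hoxb9, had 0 in both. The Mir196a copies share the whole 5p product, a run of 22 bases, whereas the 5p product of Mir196b differs from it by A12C and its hairpin shares at most 12 bases in a row with another.

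Pluripotency clusters. The 5 genes of the Mir290 cluster with a row (Mir290a, Mir291a, Mir293, Mir294 and Mir295), within 2216 bp of chromosome 7, had 0 counts in both libraries. Of these only Mir291a shares 20 bases with another miRNA hairpin, that of Mir291b, so the limit of 3 counts (1.29 and 0.879 CPM) applies to the other genes. The Mir302 cluster, 5 genes within 580 bp of chromosome 3 and opposite an intron of Larp7, was not entirely empty. Mir302d had 2 counts (0.861 CPM) in replicate 1 and 7 counts (2.05 CPM) in replicate 2, Mir302b had 2 and 2 counts, and Mir302a 1 and 0. Mir302c and Mir367 had 0 in both. With 3 genes of 5 holding any count, and none of them above 7 counts in a library, these values are at the edge of the depth. The Mir302a and Mir302b hairpins share a run of 20 bases, so reads that fit both may be missing from their counts.

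Exocrine pancreas genes. Mir216a and Mir216b had 0 counts in both libraries, and Mir217 had 3 counts in replicate 1 and 0 in replicate 2, which is not above the limit of a count of 0. All 3 lie on chromosome 11 between 28746191 and 28763835, and none shares more than 13 bases in a row with another miRNA hairpin.

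The zeros do not all carry the same weight. Reads placed at several positions stand in a row of their own that names no gene, and were taken to be in no gene's count. They made up 42.6% of replicate 1 and 46.0% of replicate 2, of gene counts and rows that name no gene together. How the counter treated them is not given in the sources used here. Of the 33 genes, 12 had a hairpin sharing 20 bases or more, on either strand, with a miRNA hairpin at another locus. Of these 12, 4 had any count and 1, Mir194-2, was detected. Of the other 21 genes, 13 had a count and 6 were detected. The 8 genes that share no such run and had 0 counts were Mir290a, Mir293, Mir294, Mir295, Mir302c, Mir367, Mir216a and Mir216b. For these the zeros are limits set by depth, and copies outside miRNA genes were not searched. Whether shared sequence lowered the counts was not tested.

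**Figure D3:**
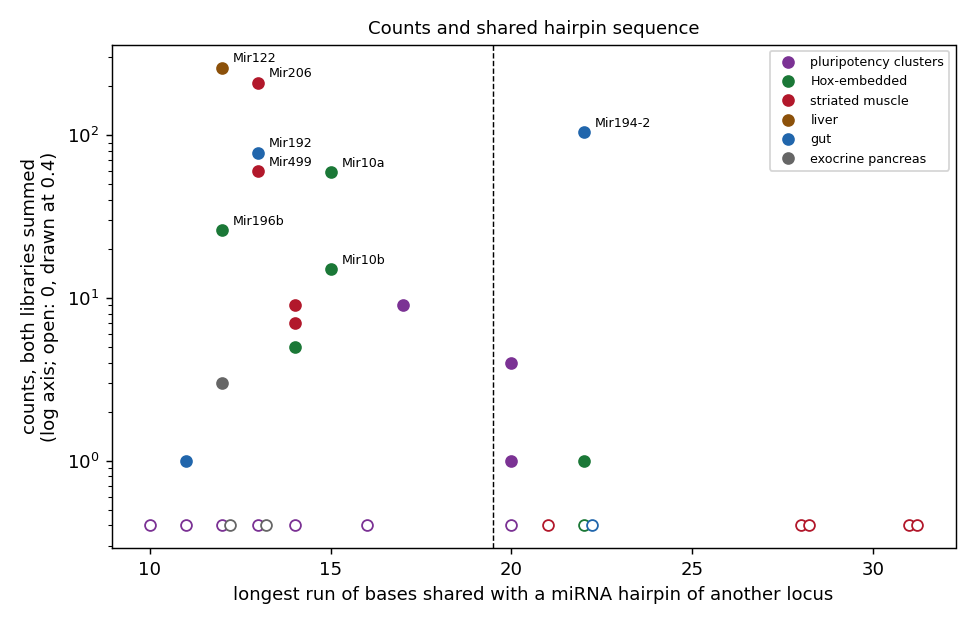
Counts of each gene summed over both libraries (log axis, open symbols for 0) against the longest run of bases its hairpin shares with a miRNA hairpin at another locus, coloured by lineage, with a dashed line left of 20 bases. Right of the line Mir194-2 is the only gene above 4 counts, and the Mir1a and Mir133a genes, at 28 and 31 bases, are at 0 for all 4.

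Between the 2 libraries, 4 of the 7 detected genes differed, and all 4 were higher in replicate 1. Differences were called by the two-sided exact binomial test with Benjamini-Hochberg adjustment over all 401 detected genes. The test measures counting error with each read taken as independent, so PCR copies can make its p-values too small. The background was 50.9% of detected genes differing and 22.7% differing with the higher value in replicate 1. This test compares 2 libraries and not conditions. Mir206 was 2.33-fold higher in replicate 1 (log2 of replicate 2 over replicate 1 of -1.22, exact 95% interval -1.64 to -0.81, adjusted exact binomial p = 4.667e-09). Mir499 was 3.44-fold higher in replicate 1 (log2 -1.78, interval -2.69 to -0.98, adjusted exact binomial p = 1.173e-05). Mir194-2 was 1.74-fold higher in replicate 1 (log2 -0.80, adjusted exact binomial p = 0.0106), and Mir196b was 2.76-fold higher (log2 -1.46, adjusted exact binomial p = 0.0296). The call on Mir196b, which rests on 17 and 9 counts, was lost without the filter on low counts (adjusted exact binomial p = 0.0502).

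For the other detected genes the test did not pass its threshold. Mir122 had a log2 difference of -0.38 (interval -0.74 to -0.02, adjusted exact binomial p = 0.0703), and it passed with DESeq2 size factors (p = 0.0461, adjusted exact binomial) and with a filter of 10 CPM (p = 0.0303, adjusted exact binomial). Mir10a was 1.11-fold higher in replicate 1 (log2 interval -0.93 to 0.67, adjusted exact binomial p = 0.875). Mir192 was 1.18-fold higher in replicate 2 (log2 0.24, interval -0.44 to 0.98, adjusted exact binomial p = 0.639). The median log2 difference of the 7 genes was -0.80, where that of all tested genes was 0.03. Among the 107 other genes in the same range of mean level, 4.98 to 46.4 CPM, 21 (19.6%) were called, 6 of them higher in replicate 1. Without the filter, 5 of the 17 genes with a count were called, against 29.4% of the 715 miRNA genes with a count. In that fit the adjusted exact binomial p was 0.00127 for Mir208a and 0.00705 for Mir208b.

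**Figure D4:**
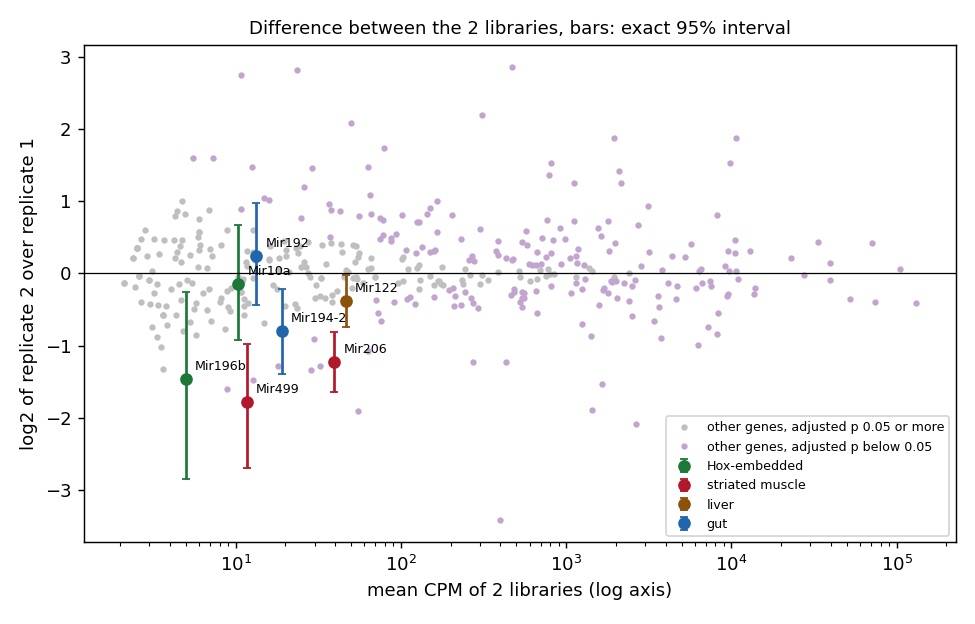
Log2 of replicate 2 over replicate 1 against mean CPM (log axis) for all 401 detected genes, purple where the adjusted exact binomial p is below 0.05 and grey otherwise, with the 7 detected genes of other lineages in colour and bars for their exact 95% intervals. The points of Mir206, Mir499, Mir194-2 and Mir196b lie below 0 with their whole intervals, as does the narrow interval of Mir122, while those of Mir10a and Mir192 cross 0.

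Other genes from a list of the same and neighbouring lineages were counted in the same way. Of 25 such genes with a row, 4 were detected, beside 18.2% of all miRNA genes, and 15 had 0 counts in both libraries. The detected ones were Mir375 of endocrine pancreas and pituitary, at 238 and 275 CPM, Mir203 of skin, at 46.9 and 84.9 CPM, and the sensory genes Mir183, at 86.5 and 23.4 CPM, and Mir182, at 45.6 and 19.0 CPM. Mir183 and Mir182 were higher in replicate 1 and Mir203 in replicate 2 (log2 of replicate 2 over replicate 1 of -1.91, -1.28 and 0.83). None of the 12 X-linked testis-type genes and none of the stem-cell genes Mir290b, Mir291b and Mir292b was detected. The muscle symbols Mir486a and Mir486b, also listed, had no row and are not among the 25 genes. The gene annotated as Mir486, named above beside the erythrocyte markers, would have passed the detection minimum. It showed 20.7 CPM for replicate 1 against 21.4 CPM for replicate 2, a log2 difference of 0.02.

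Some seeds of these rare genes were present in the tissue through other genes. The seed of miR-367-3p is shared by 6 miRNA genes outside the set, all detected. Their sum was 6593 CPM in the first replicate and 7036 CPM in the other, of which Mir92b made up most, at 6359 ± 205 CPM (SD, n = 2), while Mir367 itself had 0 counts. Mir291a, Mir294, Mir295, Mir302b and Mir302d share a seed, and the 3p product of Mir302a was not at hand to compare. That seed occurs at bases 3 to 9, a base later than in a true seed match, in the 5p products of 5 detected genes. They were led by Mir93 at 1286 ± 93.4 CPM, with a sum of 2449 ± 24.8 CPM. The seed of the Mir196 products occurs at bases 3 to 9 of products of 10 detected genes of the let-7 family and Mir98, which summed to 373741 ± 44240 CPM. The products below show these bases in capitals, and gene counts do not separate the arms of a hairpin.
miR-92b-3p: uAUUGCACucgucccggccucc
miR-93-5p: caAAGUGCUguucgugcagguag
let-7g-5p: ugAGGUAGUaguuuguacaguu

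Shifted a base the other way, to bases 1 to 7, the seed of miR-367-5p occurs in miR-744-3p, whose gene Mir744 was at a mean of 39694 CPM, and that of miR-217-5p in miR-20a-3p, whose gene Mir20a was at 234 CPM. In the same position the seed of miR-194-2-3p occurs in a product of Mir3061, at 16.1 CPM, and at bases 3 to 9 a seed of Mir133b occurs in one of Mir7115, at 3.04 CPM. Among unshifted seeds, no detected gene outside the set with a RefSeq mature sequence shares the seed of Mir206, Mir208a, Mir208b, Mir499, Mir10a, Mir10b, Mir192, Mir215 or the shared 5p product of Mir194-1 and Mir194-2. Mature sequences were at hand for 1022 of the 2202 miRNA genes, so sharing with the others was not examined.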

How the data were processed

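Reads per miRNA gene were deposited as raw counts, 1 table per library, for both strands together, the strand of the gene and the opposite strand. The assembly was mm10, per the labels, and the annotation GENCODE M21, per the deposited description files. The aligner and counter are not given in the sources used here. The same-strand column was used. Rows that name no gene (63.9% and 65.9% of reads) were left out of library sizes. Symbols, positions and hairpins came from GENCODE M21 by gene identifier, and mature sequences from RefSeq (GRCm38.p6) by position.

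CPM, the Wilson 95% intervals, shared runs and seeds were computed with Python 3.11.15 and scipy 1.17.1. Libraries were compared by a two-sided exact binomial test per gene with TMM effective sizes from edgeR 4.0.16, over genes at 2 CPM or more in both libraries, with 0.5 added to counts for log2 ratios. The test was checked on simulated counts that held counting error only, so the check does not cover further spread between libraries. With 1 group there was no contrast between conditions. Alternatives were other denominators, minimums, strand columns, size factors (DESeq2 1.42.0) and run lengths.

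Every gene of the set is accounted for. Genes detected in both libraries are given with counts and CPM, others with counts, and genes outside the set only where they share a seed or position with it or stand on a fixed list. The genes and lists were chosen with earlier results of these data known.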

Additional observations from a re-analysis of the deposited data

Results flagged for a closer look

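Mir1a-2 had 0 counts on its own strand but 1 count on the opposite strand in replicate 1 and 10 in replicate 2, a column that no comparison above used. The value of 10 exceeds the limit of 3 counts. Mir1b, annotated on that opposite strand at the same place, had the same 1 and 10 counts as same-strand counts (0.431 and 2.93 CPM).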

How the results depend on the processing

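The count of 7 detected genes ranged from 5 to 10 under the alternatives run, apart from 11 when 2 CPM was asked of either library rather than both. With Mir292 counted as Mir292a it was 7, and without genes sharing a run it was 6, both settings added after seeing the data. With CPM taken over all reads, lineage sums were 0.838 (pluripotency), 6.74 (Hox), 16.3 (liver) and 11.5 (gut), and the muscle sum was 19.4, a move within its spread between the libraries. With the 5 most abundant genes left out of the total, they were 4.20 (pluripotency), 33.8 (Hox), 97.7 (muscle), 82.0 (liver) and 57.6 (gut) CPM. These follow from the denominator. The muscle sum was 29.3 CPM without replicate 1 and 80.1 CPM without replicate 2. The number of genes differing between the libraries, 4, ranged from 3 to 5, and cannot be formed with a replicate left out. No direction of a detected gene was reversed. With a shared run of 18 or 22 bases, 12 or 8 genes had one. No paired analysis was possible because there was 1 group. For genes at 0 that share no run of 20 bases, depth limits the level to 1.29 and 0.879 CPM.
Mir196b lost its call without the low-count filter, and Mir122 gained one with DESeq2 size factors or a 10 CPM filter.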
